A study of Mus musculus with 4 samples.

Results

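Stag3, Mnd1, Mei1, Tcfl5 and Zfp541 are 5 genes with known roles in meiosis whose RNA was higher in cortical neurons of Setdb1-CK-cKO mice than in those of wildtype mice. They were picked by symbol from the 32285 genes of the deposited count tables. The pick rested on the knockout against wildtype contrast in excitatory neurons, so their values in those neurons are given as a description with no test. Their values in interneurons and glia, the difference of their response between neuron layers, their detection in the same nuclei, their promoters and their neighbours were not used for the pick and are compared below.

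Meiosis is the division by which germ cells form gametes, and its genes are normally transcribed in testis and fetal ovary and kept silent in the brain. Chromosomes are first held by a germline form of the cohesin ring, then cut by programmed double-strand breaks, and the cut ends invade the homologous chromosome with the help of strand exchange proteins. SETDB1, the product of the targeted gene, methylates lysine 9 of histone H3, a mark of silent chromatin found at many transposable elements and germline genes. Stag3 encodes the STAG subunit of meiotic cohesin, Mnd1 the partner of HOP2 in strand exchange, Mei1 a protein needed to form the breaks, Tcfl5 a basic helix-loop-helix transcription factor of spermatocytes, and Zfp541 a zinc finger protein of spermatocytes that acts in a histone deacetylase complex.

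Nuclei from the cortex of 5-month-old C57BL/6 mice were sequenced with a 10x 3′ assay, in 1 library per animal. The groups were 2 wildtype animals (genotype given as Wildtype) and 2 conditional knockout animals (Setdb1-CK-cKO). The labels do not say what CK stands for, and therefore not in which cells Setdb1 was deleted. With 2 animals a genotype, p-values rest on 2 libraries on each side and on a spread that the models share across all genes. Tests of a difference between classes or subclasses also take spread from several sums of the same libraries, which is not spread between animals.

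The libraries held 11790 to 14493 barcodes and 38314394 to 45605971 UMIs (unique molecular identifiers, each standing for 1 captured RNA molecule). After filtering 52038 nuclei were kept, of which 48196 fell in 9 classes named from marker genes, each name meaning likeness to those markers. Setdb1 RNA itself did not separate the genotypes: in excitatory neurons it stood at 71.6 and 67.0 CPM (UMIs of the gene per 1000000 UMIs of the summed class) in wildtype and 72.2 and 66.9 CPM in knockout replicates 1 and 2. Tags counted over the whole gene need not fall in a deleted part, so this checks neither the deletion nor the labels. Xist and Uty RNA in the 2 knockout libraries went against the sex listed for those animals. Each genotype nevertheless had 1 library with each pattern: Uty was high in both replicates 1 (89.3 and 82.6 CPM) and Xist in both replicates 2 (1025 and 1384 CPM). A difference between replicates 1 and 2 therefore cannot be told apart from this pattern. Any pair of libraries shared 48 to 64 barcodes, at most 0.483% of the smaller one. None of the 5 genes was among the 2000 variable genes that defined the clusters.

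All 5 are protein-coding genes on different chromosomes, here in GRCm38 coordinates from GENCODE vM21. Stag3 (ENSMUSG00000036928) lies at chr5:138280240-138312393 on the plus strand, Mnd1 (ENSMUSG00000033752) at chr3:84087933-84155786 on the minus strand and Mei1 (ENSMUSG00000068117) at chr15:82069996-82126814 on the plus strand. Tcfl5 (ENSMUSG00000038932) lies at chr2:180621956-180642708 on the minus strand and Zfp541 (ENSMUSG00000078796) at chr7:16061814-16096334 on the plus strand. The only annotated overlap with another gene was at the 3′ end of Tcfl5, which shares 234 bases with Col9a3 on the opposite strand. Col9a3 stood at 2.06 and 1.38 CPM in wildtype and 1.54 and 1.82 CPM in knockout excitatory neurons.

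Promoter sequence from RefSeq (GRCm38.p6) was found for all 5 genes, as 300 bases from 250 before to 50 after the annotated start. It was searched on both strands for CACGTG, the E-box bound by MGA with MAX and by other helix-loop-helix factors, and for GCGGGA or its reverse complement TCCCGC, the core bound by E2F factors. E2F6 and MGA are subunits of a repressor complex known for silencing meiotic genes in somatic cells, which is why these letters were chosen. The 3 promoters with a match are shown from 5′ to 3′ on the strand of the gene, with the matches in capitals. They lie at chr5:138280259-138280558 (plus strand, Stag3), chr3:84155737-84156036 (minus strand, Mnd1) and chr2:180642642-180642941 (minus strand, Tcfl5).
Stag3: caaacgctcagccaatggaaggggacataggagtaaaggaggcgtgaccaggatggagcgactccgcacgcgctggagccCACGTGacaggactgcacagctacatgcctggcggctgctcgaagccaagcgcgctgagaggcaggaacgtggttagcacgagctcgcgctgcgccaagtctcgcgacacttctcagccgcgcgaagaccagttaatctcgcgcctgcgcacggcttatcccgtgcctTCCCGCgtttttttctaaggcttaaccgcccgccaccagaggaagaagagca
Mnd1: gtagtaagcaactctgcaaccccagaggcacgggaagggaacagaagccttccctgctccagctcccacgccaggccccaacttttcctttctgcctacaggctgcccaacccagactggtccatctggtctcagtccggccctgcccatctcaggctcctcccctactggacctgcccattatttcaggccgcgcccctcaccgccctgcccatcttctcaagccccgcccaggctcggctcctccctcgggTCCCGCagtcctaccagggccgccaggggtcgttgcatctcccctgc
Tcfl5: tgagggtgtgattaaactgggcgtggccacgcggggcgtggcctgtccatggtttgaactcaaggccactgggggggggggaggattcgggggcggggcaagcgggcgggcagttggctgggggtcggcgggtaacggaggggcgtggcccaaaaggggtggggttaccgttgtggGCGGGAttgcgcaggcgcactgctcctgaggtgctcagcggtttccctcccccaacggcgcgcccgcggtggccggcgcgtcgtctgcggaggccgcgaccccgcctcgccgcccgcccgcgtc

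Stag3 held both motifs, the E-box beginning 170 bases before the start and TCCCGC 2 bases before it. Mnd1 held TCCCGC 3 bases after the start and Tcfl5 held GCGGGA 74 bases before it. Among 32817 promoters of the same length 7.15% held CACGTG, 19.97% held GCGGGA or TCCCGC and 1.99% held both. The Stag3 promoter had a CpG content of 1.06 observed over expected, higher than 96.9% of promoters, and the Tcfl5 promoter 0.918, against a median of 0.383. Mnd1 stood at 0.423 in spite of a GC content of 65%. The windows of Mei1 (0.491) and Zfp541 (0.270) held neither motif, which says only that these letters are not in those windows. For these 2 genes the RefSeq start lies 12480 and 10031 bases from the GENCODE gene start, so the window may not be the promoter in use.

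In excitatory neurons, from which the genes were picked, 4 of the 5 were close to absent in wildtype and reached 6.66 to 21.8 CPM in the knockout, while Mei1 was already present in wildtype. Stag3, the cohesin subunit, stood at 0.730 and 0.935 CPM in wildtype replicates 1 and 2 and at 15.6 and 16.6 CPM in knockout replicates 1 and 2, from 22, 27, 397 and 419 UMIs. Mnd1, the strand exchange factor, stood at 0.365, 0.761, 6.66 and 12.6 CPM in the same order. As a ratio it had the widest gap between the knockout animals of the 5 genes, although both stood above both wildtype animals.

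Mei1, the break formation gene, stood at 46.5 and 60.2 CPM in wildtype and 139 and 147 CPM in knockout. On this scale, which is not corrected for gene length, it was the most often counted of the 5 in both genotypes, and it had the smallest log2 fold change, 1.396 (knockout over wildtype, as all fold changes here). Of the transcription regulators, Tcfl5 stood at 0.564, 0.381, 14.5 and 15.1 CPM and Zfp541 at 3.45, 3.67, 19.5 and 21.8 CPM, in the order wildtype 1 and 2, knockout 1 and 2. Their log2 fold changes were 4.92 and 2.504, beside 4.24 for Stag3 and 4.07 for Mnd1. The genotypes did not overlap for any of the 5, which the pick fixed. In this class 3.20% of 19156 genes tested were higher in the knockout at an adjusted p under 0.05, and 30.1% had both knockout libraries above both wildtype libraries.

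**Figure D1:**
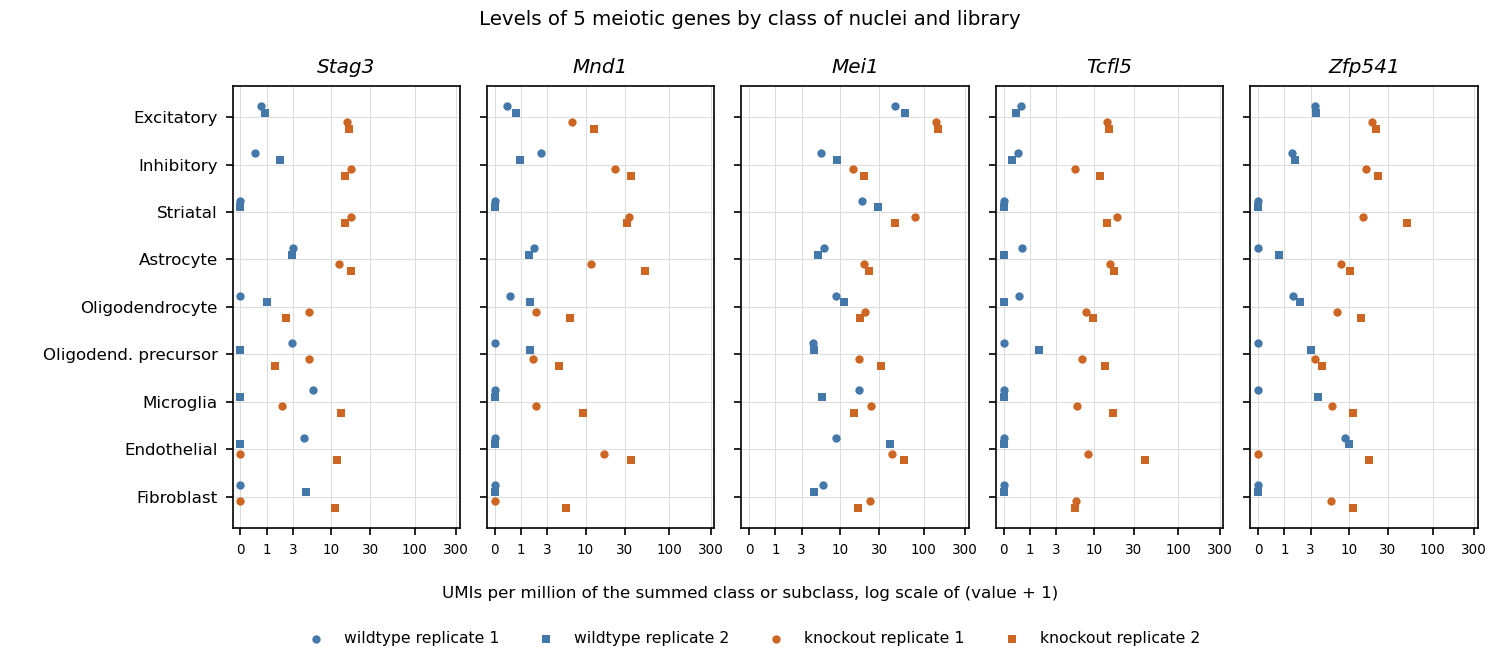
Level of each gene in CPM (horizontal, log scale of value + 1) in 9 classes of nuclei (rows), with 1 point for each library, blue for wildtype and orange for knockout. In excitatory and inhibitory neurons every orange point lies to the right of every blue point for all 5 genes, and Mei1 alone starts far from 0 in wildtype excitatory neurons.

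Excitatory neurons were split into 12 subclasses with enough nuclei in each library, 7 named by layer and projection and 5 kept as numbered clusters. For each of the 5 genes the knockout libraries stood above the wildtype libraries in 12 of 12 subclasses. The share of all genes that did so was 25.7% in L2/3 IT-like, 24.9% in L4/5 IT-like, 25.9% in L5 IT-like, 20.6% in L5 ET-like, 21.5% in L5/6 NP-like, 24.3% in L6 CT-like and 23.5% in L6 Car3-like neurons, and 25.7, 26.4, 20.8, 22.8 and 20.5% in clusters 6, 10, 14, 17 and 22. Mei1 had the clearest order among layers. In the knockout it was highest in L4/5 IT-like neurons, intratelencephalic cells of the middle layers, at 258 and 278 CPM, which did not overlap the next subclass (cluster 14, 180 and 210 CPM). L5 IT-like (174 and 174 CPM) and L2/3 IT-like neurons (170 and 157 CPM) followed near the L6 Car3-like neurons (166 and 187 CPM). L5 IT-like and L2/3 IT-like neurons did not overlap, while L6 Car3-like neurons overlapped L5 IT-like and L2/3 IT-like ones. L6 CT-like corticothalamic neurons held 87.3 and 87.9 CPM. L5 ET-like neurons, which project out of the cortex, were lowest at 32.9 and 42.9 CPM and overlapped cluster 17 (34.7 and 47.3 CPM).

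The wildtype order of Mei1 was similar but not the same. L2/3 IT-like neurons (67.8 and 83.6 CPM) and L4/5 IT-like neurons (66.8 and 80.6 CPM) overlapped at the top, and L5 ET-like neurons were lowest (7.91 and 15.2 CPM). The log2 fold change of Mei1 was thus 1.84 in L4/5 IT-like and 1.09 in L2/3 IT-like neurons from a like wildtype level, and reached 2.13 in cluster 14, led by Tshz2 and Tnxb. Whether the response differs between subclasses was tested as the genotype by subclass term with a library term over all 12 (edgeR quasi-likelihood, Benjamini-Hochberg over 15760 genes). It passed for Mei1 (adjusted p = 0.000245), beside 2.23% of all genes, and was lost without wildtype replicate 1 (adjusted p = 0.421) or wildtype replicate 2 (adjusted p = 0.142). For the other 4 genes the adjusted p was 0.692 to 0.951.

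Stag3 ranged from 19.8 and 21.4 CPM in cluster 17 to 7.87 and 14.6 CPM in cluster 14 in the knockout, which did not overlap, with no wildtype value above 3.77 CPM. Mnd1 was highest in cluster 14, at 21.4 and 30.6 CPM in the knockout and 0 UMIs in both wildtype libraries, at least 16.2-fold higher by a floor of 3 wildtype UMIs over the group. In cluster 22 its knockout animals stood at 2.98 and 30.6 CPM, so a level there rests on 1 animal. L2/3 IT-like neurons had 9.98 and 20.3 CPM of Mnd1, above the 3.96 and 2.25 CPM of cluster 17.

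Tcfl5 reached 18.8 and 16.4 CPM in knockout L2/3 IT-like neurons and 8.76 and 9.72 CPM in L4/5 IT-like neurons, the latter against 0 wildtype UMIs (at least 19.01-fold). Its lowest knockout level was in cluster 14 (4.499 and 6.66 CPM), where Mnd1 was highest. Zfp541 was highest in L5/6 NP-like (near-projecting) neurons, at 38.8 and 51.7 CPM, which stood apart from 16.9 and 16.2 CPM in L2/3 IT-like and 12.7 and 17.7 CPM in L4/5 IT-like neurons. The layer with the most Mei1 in the knockout therefore had lower Tcfl5 and Zfp541 than L2/3 IT-like or L5/6 NP-like neurons had, respectively.

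**Figure D2:**
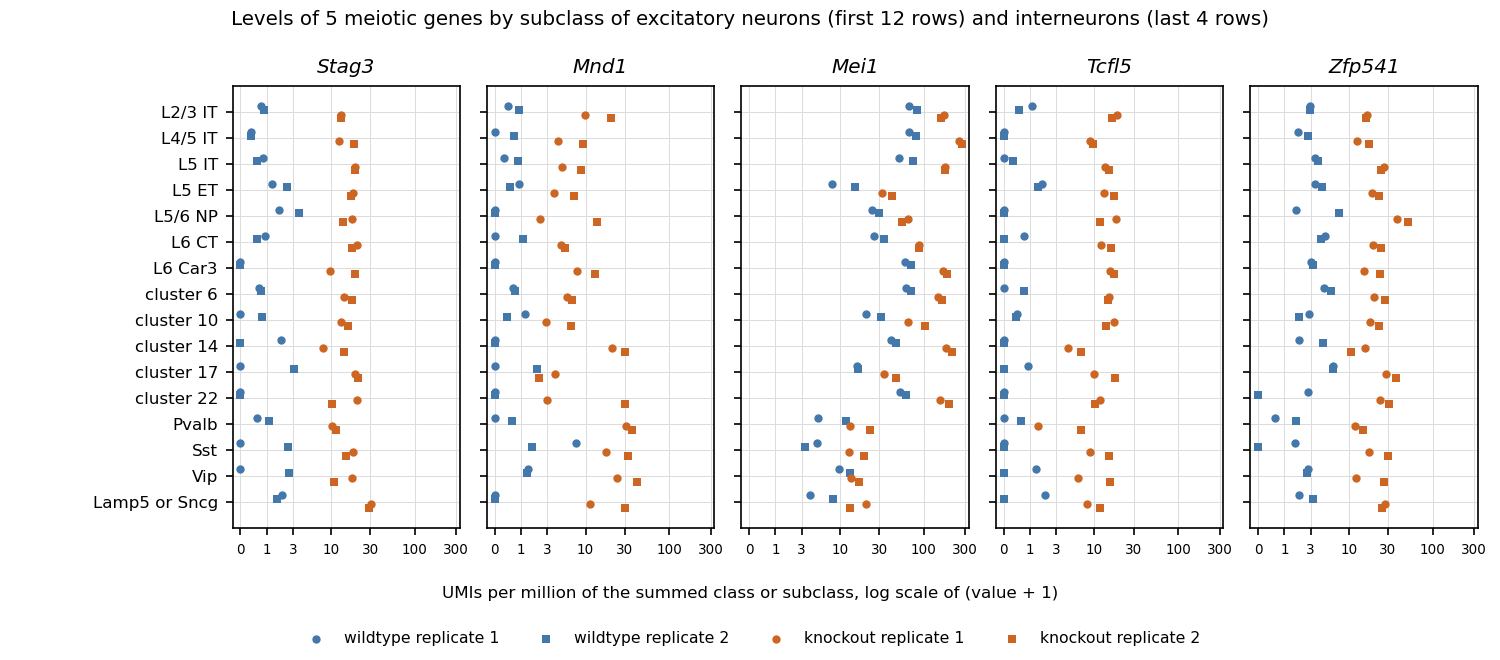
Level of each gene in CPM (horizontal, log scale of value + 1) in 12 excitatory and 4 interneuron subclasses (rows), with 1 point per library. Mei1 spans 32.9 to 278 CPM among knockout excitatory subclasses and falls to 23.5 CPM or less in every interneuron subclass, while the knockout ranges of the other 4 genes overlap between both kinds of neuron.

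Inhibitory neurons, which were not part of the contrast behind the pick, had higher levels of all 5 genes in the knockout. Stag3 stood at 0.476 and 1.85 CPM in wildtype and 17.6 and 14.9 CPM in knockout, from 2, 8, 64 and 60 UMIs. Mnd1 stood at 2.38, 0.925, 22.8 and 36.1 CPM. Zfp541 stood at 1.43, 1.62, 16.2 and 22.9 CPM. For these 3 genes the lowest knockout library was over 8 times the highest wildtype library, and Mnd1 had a higher CPM in knockout interneurons than in knockout excitatory neurons (6.66 and 12.6 CPM).

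By edgeR's quasi-likelihood test with Benjamini-Hochberg adjustment over 14523 genes, the log2 fold change was 3.74 ± 0.388 (SE) for Stag3 (adjusted p = 6.33e-06), 4.13 ± 0.354 for Mnd1 (adjusted p = 3.85e-07) and 3.64 ± 0.341 for Zfp541 (adjusted p = 1.41e-06). Tcfl5 stood at 0.476, 0.231, 5.50 and 11.7 CPM (adjusted p = 1.98e-04). It rested on 3 wildtype UMIs against 67, a ratio of 24.9 (95% counting interval 8.15 to 124). Mei1 stood at 5.71, 9.25, 14.6 and 19.7 CPM, with a log2 fold change of 1.18 ± 0.265 (adjusted p = 0.0243). All 5 passed the low-count filter and 5 of 5 rose, beside 1.19% of all genes tested, and the genotypes did not overlap for any, beside 24.7% of all genes. Of the 5, 4 had fewer than 10 UMIs in at least 1 wildtype library. These were Stag3, Mnd1, Tcfl5 and Zfp541, which passed the filter through the knockout libraries alone and so had to differ. The count of 5 of 5 is therefore no support for a rise. With no such filter 235 of 23746 genes were called higher, and the adjusted p by the same test was 2.25e-10 to 0.0113 for the 5. The call for Mei1 was lost with DESeq2 (adjusted p = 0.306), without wildtype replicate 1 (0.348) and without knockout replicate 2 (0.139).

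Markers of excitatory neurons were also counted in interneuron nuclei. The summed level of 8 excitatory markers (Slc17a7, the vesicular glutamate transporter gene, and Neurod6 among them, all 8 with UMIs) was 26.6, 33.3, 27.5 and 31.7% of that in excitatory neurons of the same library, in the order wildtype 1 and 2, knockout 1 and 2. Single markers ranged from 11.6 to 56.7% in knockout replicate 1 and from 14.7 to 48.8% in replicate 2. Mei1 in knockout interneurons was 10.5 and 13.3% of its excitatory level, below the summed markers. In interneuron nuclei without a UMI of these markers it stood at 4.54, 7.35, 7.82 and 15.7 CPM in the order wildtype 1 and 2, knockout 1 and 2. The part of excitatory RNA in the Mei1 call was not tested further. Stag3 (113 and 90.1%), Mnd1 (343 and 285%) and Zfp541 (83.4 and 105%) stood above the highest single marker in both knockout libraries. Tcfl5 (37.9 and 77.3%) did so in replicate 2 alone. In the interneuron nuclei with no UMI of any of the 8 markers, an alternative added after seeing the data, Stag3 (adjusted p = 0.00365), Mnd1 (9.98e-06) and Zfp541 (1.23e-04) passed edgeR's test, Mei1 did not (0.474) and Tcfl5 had too few UMIs to be tested. Stag3, Mnd1 and Zfp541 again passed the count filter through the knockout libraries alone and so had to differ.

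All 4 interneuron subclasses had higher levels of every one of the 5 genes in the knockout libraries, where 20.3% (Lamp5 or Sncg-like), 21.9% (Pvalb-like), 22.1% (Sst-like) and 20.4% (Vip-like) of all genes had both knockout libraries on top. Stag3 was highest in Lamp5 or Sncg-like interneurons, at 1.97 and 1.62 CPM in wildtype and 30.9 and 28.6 CPM in knockout, clear of Sst-like (18.8 and 15.3 CPM), Vip-like (18.17 and 10.9 CPM) and Pvalb-like knockout interneurons (10.4 and 11.4 CPM). Mnd1 had another order. It stood at 31.1 and 37.0 CPM in knockout Pvalb-like interneurons, the fast-spiking basket and chandelier cells, against 1 wildtype UMI (ratio 121, 95% counting interval 21.2 to 4821). In Vip-like interneurons it stood at 1.38, 1.33, 24.2 and 42.4 CPM and in Sst-like interneurons at 7.54, 1.68, 17.8 and 33.2 CPM, so that the knockout levels of these 3 subclasses overlapped.

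Zfp541 reached 27.7 and 25.3 CPM in knockout Lamp5 or Sncg-like, 17.8 and 29.6 CPM in Sst-like, 12.1 and 26.7 CPM in Vip-like and 11.8 and 14.8 CPM in Pvalb-like interneurons. Tcfl5 stood at 8.91 and 15.3 CPM in knockout Sst-like (0 wildtype UMIs, at least 9.73-fold), 6.06 and 15.8 CPM in Vip-like and 8.14 and 11.8 CPM in Lamp5 or Sncg-like interneurons, which overlapped, and at 1.48 and 6.73 CPM in Pvalb-like ones. Of the 20 pairs of gene and subclass 13 had enough counts for edgeR's test and 10 rose, beside 0.313, 0.366, 0.496 and 0.374% of genes in the same order of subclasses. The 3 tested pairs that did not pass were those of Mei1 (adjusted p = 0.0776 to 0.838). Most of these pairs passed the count filter through the knockout libraries alone and so had to differ, which makes these counts no support for a rise, and the untested pairs are no sign of a smaller response. With no filter 4 of the 10 calls held (Stag3 and Zfp541 in Lamp5 or Sncg-like, Mnd1 in Pvalb-like and Vip-like interneurons), 6 were lost (adjusted p = 0.134 to 0.708) and 4 others were gained. The 10 fell to 2 with DESeq2, and some were lost in fits with 1 library left out. A difference of response among the 4 subclasses was not shown: the adjusted p of the genotype by subclass term was 0.186 for Mnd1 (unadjusted p = 9.44e-04) and 0.947 to 0.998 for the others, where 0.301% of 11643 genes passed.

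Among glia, astrocytes had the highest mean knockout level of Stag3, Mnd1 and Tcfl5. Stag3 stood at 3.07 and 2.91 CPM in wildtype and 12.7 and 17.4 CPM in knockout astrocytes, a log2 fold change of 2.29 ± 0.515 (edgeR adjusted p = 0.0267). Mnd1 stood at 1.84, 1.46, 11.7 and 52.3 CPM (4.18 ± 0.681, adjusted p = 0.00203), with knockout replicate 2 far above replicate 1 and the call lost without it (adjusted p = 0.298). Tcfl5 stood at 0.613, 0, 15.6 and 17.4 CPM, from 1 wildtype UMI (ratio 49.6, 95% counting interval 8.30 to 2018, adjusted p = 7.63e-04). Mei1 stood at 6.13, 5.10, 19.5 and 22.6 CPM (1.88 ± 0.401, adjusted p = 0.0182), and Zfp541 at 0, 0.729, 7.82 and 10.3 CPM with too few UMIs for a test. In this class 0.899% of 11683 genes were called higher in the knockout. All of the genes tested here passed the count filter through the knockout libraries alone and so had to differ. With no filter 202 of 21600 genes were called higher in this class, and the 4 astrocyte calls held (edgeR adjusted p = 1.56e-14 to 0.00133). The lowest was that of Mnd1, in spite of its far apart knockout libraries, and Tcfl5 was at 2.03e-09.

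Oligodendrocytes, the myelin-forming cells, had lower levels. Tcfl5 stood at 0.497, 0, 7.79 and 9.53 CPM (1 wildtype UMI, ratio 34.1, 95% counting interval 5.56 to 1403, edgeR adjusted p = 0.0139). Zfp541 stood at 1.49, 2.03, 7.14 and 14.3 CPM, a log2 fold change of 2.54 ± 0.568 (adjusted p = 0.0428). Both were called where 0.404% of genes were. Both genes passed the count filter through the knockout libraries alone and so had to differ. With no filter, where 5 of 21758 genes were called higher, both calls were lost (edgeR adjusted p = 0.0938 for Tcfl5 and 0.194 for Zfp541). Of the 6 calls in astrocytes and oligodendrocytes 1 held with DESeq2 (Mnd1 in astrocytes), and 1 to 5 held when 1 library was left out. Mei1 did not pass (8.94, 11.2, 20.1 and 17.5 CPM, adjusted p = 0.166), and Stag3 (0, 1.02, 5.19 and 2.38 CPM) and Mnd1 (0.497, 1.52, 1.95 and 6.35 CPM) had too few UMIs for a test. In oligodendrocyte precursors the 2 knockout libraries stood at 17.4 and 31.2 CPM of Mei1 against 4.37 and 4.54 CPM in wildtype (2.43 ± 0.590, adjusted p = 0.162, with 0.0524% of genes called), and none of the other 4 genes had enough UMIs for a test there. None of the 5 was tested in microglia, endothelial nuclei or fibroblasts.

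The excitatory markers were higher still in glia than in interneurons. Their summed level in astrocytes was 47.7, 61.1, 43.5 and 50.7% of the excitatory level, in oligodendrocytes 68.2, 74.9, 59.4 and 69.2%, and in microglia 77.6, 78.4, 67.0 and 75.3%, and in endothelial nuclei it exceeded the excitatory level in all 4 libraries. In knockout oligodendrocytes all 5 genes lay below the summed markers (Tcfl5 at 53.7 and 62.9%, Zfp541 at 36.7 and 65.6%, Mei1 at 14.5 and 11.9%), and so did Mei1 (14.1 and 15.3%) and Zfp541 (40.2 and 47.1%) in knockout astrocytes. In knockout astrocytes Stag3 (81.2 and 105%), Mnd1 (176 and 414%) and Tcfl5 (108 and 115%) stood above the summed markers, though single markers there reached 115 and 105%. In astrocytes without any excitatory marker UMI the levels, in the order wildtype 1 and 2, knockout 1 and 2, were 5.32, 0, 14.8 and 17.2 CPM for Stag3, 2.66, 1.82, 12.95 and 47.7 CPM for Mnd1, 0, 0, 16.7 and 13.4 CPM for Tcfl5 and 3.99, 9.099, 20.4 and 17.2 CPM for Mei1. In such oligodendrocytes they were 0, 0, 12.4 and 7.92 CPM for Tcfl5 and 2.09, 1.14, 8.71 and 14.25 CPM for Zfp541. The knockout libraries stood above the wildtype libraries for each of these, as in all nuclei of the class, but none of the 6 had enough UMIs in such nuclei for a test.

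**Figure D3:**
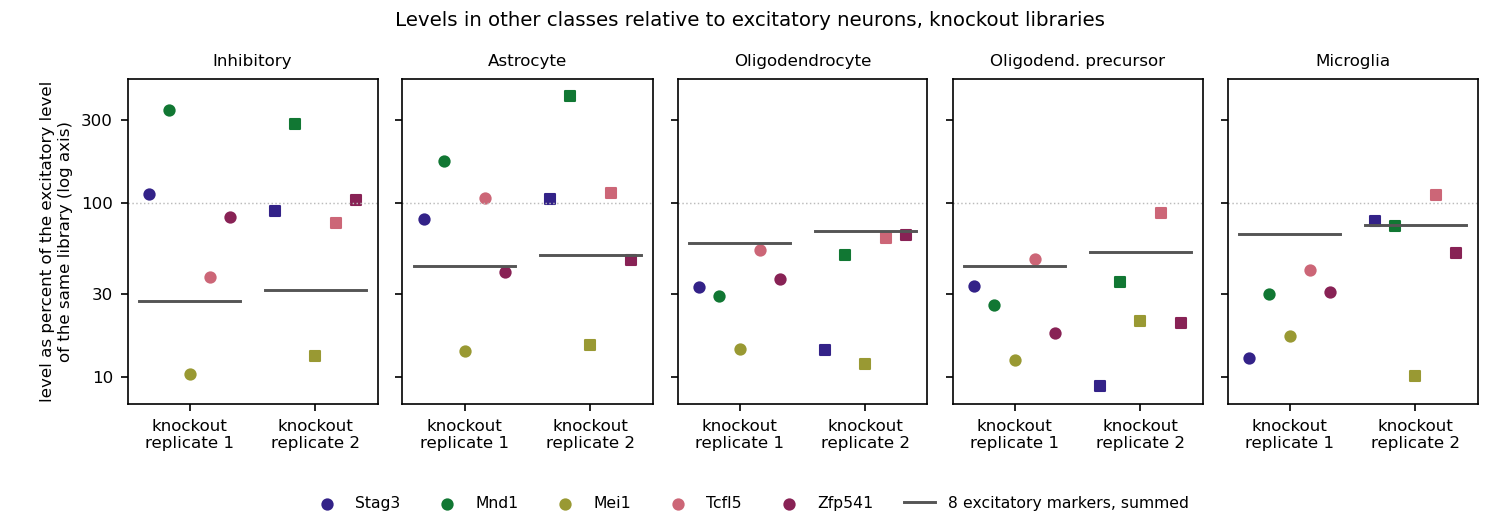
Level of each gene in 5 other classes as a percent of its excitatory level in the same knockout library (vertical, log axis), with the summed level of 8 excitatory markers as grey lines. In both libraries Stag3, Mnd1, Tcfl5 and Zfp541 lie above the line in inhibitory neurons, Stag3, Mnd1 and Tcfl5 in astrocytes and Tcfl5 in oligodendrocyte precursors, while Mei1 lies below it in all 5 classes.

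Interneurons and each of 4 glial classes were also compared directly, by the genotype by class term of an edgeR fit with a library term. None of the 20 pairs of gene and class passed, where 0.685% of all genes did against astrocytes, 0.687% against oligodendrocytes, 0.0570% against oligodendrocyte precursors and 0.590% against microglia, and Mnd1 against oligodendrocytes was the only pair with an unadjusted p under 0.05 (0.0463). The sign of 10 of the 20 differences changed when 1 library was left out, in 12 of 80 such fits (lowest adjusted p of the 80, 0.275). A different size of response in interneurons and glia was therefore not shown. Striatal-like projection neurons, present in small number in these dissections (153, 153, 202 and 429 nuclei), had 0 wildtype UMIs of 4 of the genes. Mnd1 stood there at 33.6 and 31.6 CPM in the knockout (at least 10.9-fold, edgeR adjusted p = 0.0989) and Zfp541 at 14.8 and 50.2 CPM (at least 12.8-fold). Stag3 and Tcfl5 were at least 5.39-fold higher each, and Mei1 stood at 18.8, 28.9, 79.4 and 45.9 CPM (adjusted p = 0.490). In this class 0.0115% of 8685 genes passed the test.

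To see how many nuclei carried the transcripts, each nucleus was thinned to 2000 UMIs and shallower nuclei were left out. At least 1 of the 5 genes was then found in 9.76 and 12.6% of wildtype and in 31.2% (95% Clopper-Pearson interval 30.0 to 32.4) and 33.1% (31.9 to 34.3) of knockout excitatory nuclei. Most of these were Mei1 nuclei, at 23.2 and 23.7% of knockout nuclei. Each of the other 4 genes was found in 1.17 to 4.15% of them. The share among interneurons was 1.44% (0.809 to 2.37) for wildtype replicate 1, 2.84% (1.94 to 4.01) for wildtype replicate 2, and 13.02% (10.9 to 15.4) and 15.6% (13.4 to 18) for the knockout replicates. There Mnd1 was found in 3.70 and 5.70%, Stag3 in 3.48 and 3.40% and Zfp541 in 3.26 and 3.40% of knockout nuclei, and Tcfl5 in 0.898 and 2.20%.

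Unthinned, the shares of nuclei with UMIs of any member of the 5 in the knockout libraries were 50.7 and 47.4% of excitatory, 20.4 and 24.2% of inhibitory, 9.47 and 12.6% of astrocyte and 4.503 and 4.55% of oligodendrocyte nuclei. Median depths were 3954 and 3155 UMIs in excitatory, 3541.5 and 2755.5 in inhibitory, 1492 and 1182 in astrocyte and 1040 and 870.5 in oligodendrocyte nuclei, so the unthinned shares of neurons and glia are not comparable. After thinning only 97 and 27 knockout astrocytes remained (8.25 and 18.5% with any of the 5). Detection also grew with depth within excitatory neurons: from the shallowest to the deepest of 5 bins of nuclei the share rose from 40.1 to 60.5% in knockout replicate 1 and from 34.4 to 59.7% in replicate 2. A nucleus without a UMI is therefore not one without the transcript. Intervals cover counting error only.

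Where a gene was found in a knockout excitatory nucleus, it was mostly found as 1 molecule. This held for 94.1 and 95.8% of Stag3 nuclei, 93.9 and 93.3% of Tcfl5 nuclei and 89.0 and 91.2% of Zfp541 nuclei. Mnd1 was more uneven, with 82.2 and 73.2% of its nuclei at 1 UMI and up to 7 UMIs in 1 nucleus. For Mei1 the shares were 61.1 and 67.3%.

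The 5 genes were found together in excitatory nuclei about as often as their separate frequencies give. Nuclei with both genes were counted for each of the 10 pairs and set against the number expected if each gene fell independently among nuclei of the same subclass and depth bin. Over the 10 pairs there were 630 observed against 621.1 expected in knockout replicate 1, a ratio of 1.01 (95% Poisson interval 0.937 to 1.097), and 630 against 671.3 in replicate 2, a ratio of 0.938 (0.867 to 1.01). For every pair the interval covered 1 in both animals. The highest ratio was that of Mnd1 and Zfp541 in knockout replicate 1, 1.68 from 18 nuclei (0.999 to 2.66).

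Knockout nuclei with 2 or more of the genes numbered 511 against 521.8 expected in replicate 1 and 527 against 570.5 in replicate 2. There were 3 and 1 nuclei with 4 of the genes and 0 with all 5. The same count was made against 5 other genes raised in the knockout (C4b, Rnf17, Hoga1, Gramd1c and P2rx7), with ratios of 1.0003 and 1.04 (1.005 to 1.08 in replicate 2), and against 4 genes of silencing proteins (Setdb1, Atf7ip, Ehmt2 and Trim28), with 1.02 in both. Nuclei of 1 library are not replicates, so the intervals describe counting error within that animal. A nucleus can count in several pairs, so the intervals of summed pairs are too narrow.

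In knockout interneurons 32 pairs were observed against 21.3 expected in replicate 1 (ratio 1.499, 1.03 to 2.12) and 48 against 42.7 in replicate 2 (1.12, 0.829 to 1.49). Here too a nucleus can count in several pairs, so the intervals of summed pairs are too narrow. Nuclei with 2 or more of the genes numbered 26 against 19.3 expected in replicate 1 and 38 against 37.3 in replicate 2. Mnd1 and Zfp541 were the pair furthest above in replicate 1, with 8 nuclei against 2.63 (3.04, 1.31 to 5.99). In replicate 2 they were found in 10 against 6.80 (1.47, 0.705 to 2.70). The pair was picked as the highest of 10 in replicate 1, so its interval there is no test. With the 5 other raised genes the interneuron ratios were 1.22 (1.03 to 1.43) and 1.397 (1.23 to 1.58), above 1 in both animals. Inhibitory nuclei held 26.6 to 33.3% of the excitatory marker level, and the part of excitatory RNA in these ratios was not tested.

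**Figure D4:**
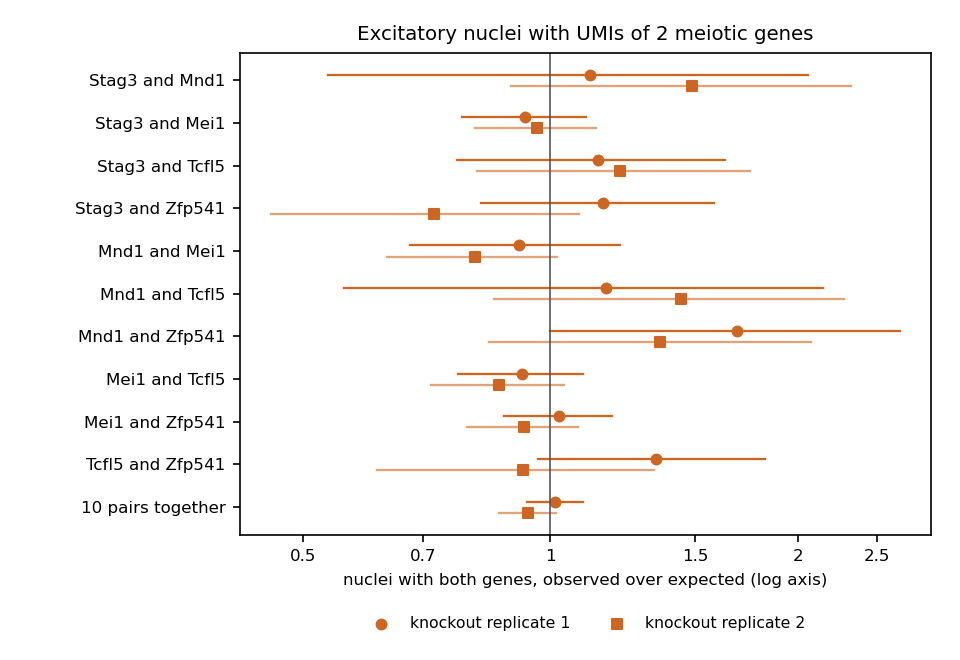
Nuclei with UMIs of both genes of a pair, observed over expected within subclass and depth bin (horizontal, log axis), for 10 pairs and their sum in excitatory neurons of knockout replicate 1 (circles) and 2 (squares). Bars are 95% Poisson intervals, and each bar crosses 1.

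Few other genes of the same meiotic steps passed the test. Of 77 listed genes 71 were tested in excitatory neurons by edgeR's quasi-likelihood test, 9 rose and 1 fell at an adjusted p under 0.05, with a median log2 fold change of 0.05, beside 3.20% of all genes higher, 1.45% lower and a median of 0.00. In inhibitory neurons 2 of 44 tested rose and 1 fell, beside 1.19% of all genes higher and 0.441% lower. The lists were drawn up with results of these data known, so the counts are a description. Of the genes that rose in excitatory neurons, Prr19 and Rbm46 passed the count filter through the knockout libraries alone and so had to differ. With no low-count filter 2 of the 9 held, Mei4 (adjusted p = 0.00914) and Rad21l (0.0436), and the adjusted p of the other 7 was 0.0665 to 0.146. Without wildtype replicate 1 the calls of Tex15, Ccdc36, Prr19 and Rbm46 were lost (0.0521 to 0.0935), and without knockout replicate 2 that of Ccnb1ip1 (0.118).

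Among cohesin genes 2 of 11 rose, and they were the germline kleisins that join STAG3 in the ring. Rec8 stood at 1.33, 2.94, 6.22 and 7.19 CPM in excitatory neurons (log2 fold change 1.63, edgeR adjusted p = 0.0158) and Rad21l at 0.564, 0.554, 1.93 and 1.74 CPM (1.68, adjusted p = 0.0116), with both knockout libraries on top for each. Smc1b, the germline SMC subunit, had a log2 fold change of 0.23 (adjusted p = 0.517), and the somatic counterparts Stag1 and Stag2 of -0.03 and -0.07. Pds5b, a general cohesin regulator, fell by 0.49 on the log2 scale (81.3, 79.3, 58.8 and 58.3 CPM, adjusted p = 0.0110) and also fell in inhibitory neurons (by 0.46, adjusted p = 0.0408). In inhibitory neurons Rec8 stood at 0.84 (adjusted p = 0.0990).

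Of the strand exchange genes that act with Mnd1, 1 of 13 rose. This was Tex15, a germline factor needed for repair of meiotic breaks and for silencing of transposons (2.66, 3.63, 5.67 and 6.32 CPM, log2 fold change 0.90, adjusted p = 0.0328). Psmc3ip, which encodes the HOP2 partner of MND1, stood at -0.04 (adjusted p = 0.960) and Dmc1, the meiotic recombinase, at -0.19 (adjusted p = 0.572). Swi5 and Sfr1, the genes next by p, stood at 0.28 and 0.27 (adjusted p = 0.207 and 0.224).

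For break formation, the step of Mei1, 2 of 9 rose. Mei4 stood at 24.8, 24.7, 49.2 and 51.5 CPM (log2 fold change 0.996, adjusted p = 7.06e-04) and Ccdc36 (Iho1) at 1.99, 2.67, 5.28 and 4.27 CPM (1.01, adjusted p = 0.0305). MEI4, IHO1 and REC114 form the complex that places the breaks, and Rec114 stood at 0.22 (adjusted p = 0.368). Mei4 also rose in inhibitory neurons (0.67, adjusted p = 0.0497). Prdm9, which marks the sites of breaks, stood at 0.46 (adjusted p = 0.253) in excitatory neurons.

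In the crossover list 2 of 14 rose, Ccnb1ip1 (0.963, 0.796, 1.81 and 3.36 CPM, log2 fold change 1.52, adjusted p = 0.0395), which encodes the ligase HEI10, and Prr19 (0, 0.0346, 0.473 and 0.553 CPM, from 1 wildtype UMI). Tex11 and Rnf212 stood at 1.01 and 1.21 (adjusted p = 0.203 and 0.276). Of 7 genes of the synaptonemal complex, the zipper between paired chromosomes, 4930447C04Rik (Six6os1) alone rose, from 50.03 and 64.9 to 98.5 and 97.3 CPM (0.74, adjusted p = 0.00753), as it did in inhibitory neurons (1.04, adjusted p = 5.34e-04). Syce3 and Syce1 stood at -1.01 and 1.51 (adjusted p = 0.0521 and 0.0611).

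Of 17 transcription and RNA regulators of meiosis 1 rose, the RNA-binding protein gene Rbm46 (0.0332, 0.173, 0.906 and 0.830 CPM, log2 fold change 3.01, adjusted p = 0.0182). Rbm46 passed the count filter through the knockout libraries alone. Dazl stood at 1.12 (adjusted p = 0.0572), Rfx2 at 1.15 (adjusted p = 0.0768) and Mybl1, a master regulator of male meiosis, at 0.37 (adjusted p = 0.488). Kctd19, the partner of Zfp541, had too few UMIs to be tested. Among 18 germline gene repressors 1 rose, Atf7ip, which encodes the binding partner of SETDB1 (63.0, 71.9, 123 and 126 CPM, 0.85, adjusted p = 7.43e-04), and it rose in inhibitory neurons as well (0.71, adjusted p = 7.29e-04). E2f6 and Cbx3 followed by p, at -0.46 and 0.21 (adjusted p = 0.161 and 0.288).

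**Figure D5:**
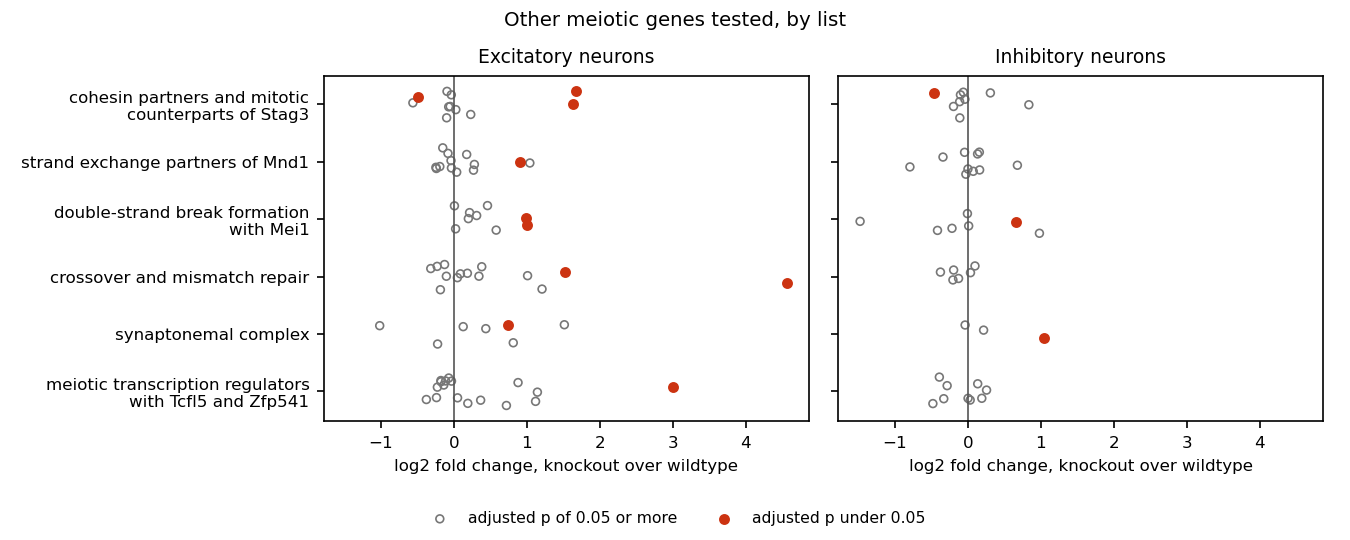
Log2 fold change, knockout over wildtype (horizontal), of each tested gene of 6 meiotic lists (rows) in excitatory and inhibitory neurons, with filled points for an edgeR adjusted p under 0.05. Most points lie near 0, and 9 filled points lie to the right of 0 in excitatory and 2 in inhibitory neurons. The point furthest right, Prr19, rests on 1 wildtype UMI.

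Among the neighbours of the 5 genes a single one passed the same test. Of 30 flanking genes, 3 on each side of each gene by start position, 25 were tested in excitatory neurons, 1 rose and 0 fell. Of all genes tested in this class 3.20% were higher and 1.45% lower, so 1 of 25 is near the share of all genes. The gene that rose was Gpc2, a cell-surface glypican gene that starts 235 bases from Stag3 on the opposite strand. It stood at 0.0996, 0.104, 0.788 and 1.11 CPM, a log2 fold change of 3.14 ± 0.487 (edgeR adjusted p = 0.00791). Gpc2 passed the count filter through the knockout libraries alone and so had to differ, which makes this call no support for a rise. The median of the 25 was 0.04. Elsewhere, the nearest tested flanking genes of Mnd1 were Trim2 at 0.04 (4653 bases away) and, on the other side, Tmem131l at 0.10. Those of Mei1 were Ccdc134 at -0.17 (1108 bases) and, on the other side, Snu13 at 0.22 (22398 bases). Those of Tcfl5 were Dido1 at -0.16 and the overlapping Col9a3 at -0.07. Those of Zfp541 were Napa at 0.00 (2124 bases) and, on the other side, Bicra at 0.07 (13893 bases). Gm38948, first on that side by start position but 77160 bases away, stood at 0.40 (edgeR adjusted p = 0.122). Zfp157, above Stag3, where the 2 nearer genes had few or no UMIs, stood at -0.11.

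Across 100 sums of a library and a class or subclass, the Pearson r of log2(CPM + 1) was highest for Stag3 with Tcfl5 (0.818). It was 0.805 for Tcfl5 with Zfp541, and 0.783 both for Stag3 with Zfp541 and for Mnd1 with Tcfl5. Mnd1 stood at 0.745 with Stag3 and 0.678 with Zfp541, and Mei1 was lower, at 0.289 to 0.536 with the others. These sums share libraries and nuclei, so r describes likeness only. They also hold both genotypes and include the excitatory sums behind the pick. The r values and the ranking that follows are therefore no test of a shared response. The genes whose pattern was most like the mean of the 5 were Gm11884 (r = 0.922), Gm32850 (0.900), Gm43388 (0.898), 1700095A21Rik (0.877) and 2310067P03Rik (0.866), all genes with provisional names. Gm11884 went from 0.598 and 0.658 CPM in wildtype to 97.5 and 204 CPM in knockout excitatory neurons.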

How the data were processed

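Per the submitters' processing notes the authors used Cell Ranger 7.1.0 and the mm10 build. The authors deposited UMI counts as whole numbers, a matrix of genes by barcodes for each library, not normalized. How introns, strand and free RNA were handled is not stated by these sources. The 4 matrices hold 38314394 to 45605971 UMIs each, and every column belongs to a labelled sample.

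Nuclei needed 500 UMIs, 300 genes and no more than 5% mitochondrial UMIs. Scrublet in scanpy 1.11.5 (Python 3.11.15) marked 2464 doublets at an expected rate of 10%, which were removed. Clusters came from 2000 variable genes, 30 principal components, 15 neighbours and Leiden clustering (leidenalg 0.10.2) at resolution 1.0, seed 1, which gave 39 clusters, and were named from fixed marker lists. Not every marker is reported here by name. Clusters with mixed or too few markers were left out of the classes, so names here are rebuilt and not the authors'.

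Counts of the nuclei were added up by library for each class or subclass with at least 30 nuclei in each library. They were filtered with filterByExpr (minimum count 10), scaled by TMM and tested with edgeR 4.0.16 quasi-likelihood fits on genotype (R 4.3.3), with Benjamini-Hochberg adjustment over all genes tested and 0.05 as threshold. Each SE was taken from the F statistic, as the size of the log2 fold change divided by its square root. Printed CPM are UMIs per 1000000 of the sum, without TMM. Genotype by class or subclass terms had a library term. Observed pairs within nuclei were set against the expectation within subclass and 5 depth bins, and shares have exact Clopper-Pearson 95% intervals. Alternatives were DESeq2 1.42.0, no count filter, each library left out, a replicate block, doublets kept, other thinning depths and, added after seeing the data, nuclei without excitatory marker UMIs. The edgeR fits were also run on simulated data, but no outcome of that is reported here.

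The 5 genes and all lists were chosen with earlier results of these data known. Named genes are the 5, list genes past the threshold in excitatory or inhibitory neurons and up to 2 further ones by p, and a few fixed partners. Flanking genes past the threshold or nearest on a side, by start position or distance, and the 5 genes most like the mean pattern are also named. Locations are from GENCODE vM21 (GRCm38) and promoters from RefSeq (GRCm38.p6).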

Additional observations from a re-analysis of the deposited data

Results flagged for a closer look

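With all libraries, the genotype by subclass term of an edgeR quasi-likelihood fit passed for Mei1 among excitatory subclasses (adjusted p = 0.000245). The adjustment was Benjamini-Hochberg over 15760 genes, of which 2.23% passed. The call depended on having both wildtype libraries, so a difference of response between subclasses is not settled. The log2 fold change of Mei1 was 1.84 in L4/5 IT-like, 1.74 in L5 ET-like, 1.15 in L5/6 NP-like and 1.09 in L2/3 IT-like neurons, and 2.13 in cluster 14. The adjusted p was 1.48e-08 without knockout replicate 1, 0.00159 without knockout replicate 2 and 8.70e-07 without the low-count filter, but 0.421 and 0.142 without wildtype replicate 1 or 2.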

How the results depend on the processing

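No genotype effect of the 5 genes that was tested within a class or interneuron subclass changed direction. The differences between interneurons and glia, none of which passed, changed sign in 12 of 80 fits with 1 library left out (Stag3 against oligodendrocyte precursors from 2.65 to -2.72 on the log2 scale without wildtype replicate 1). The ratio of pairs in wildtype excitatory replicate 2 went from 1.08 to 0.993 with depth bins alone. The 5 inhibitory calls ranged from 4 to 5 when 1 library was left out, and 3 held in nuclei without an excitatory marker UMI. The 10 interneuron calls became 2 with DESeq2 and 3 to 11 with 1 library left out, and the 6 glial calls 1 with DESeq2, 1 to 5 with 1 library left out and 0 in nuclei without an excitatory marker UMI, where none of the 6 could be tested. Genes called higher in excitatory neurons numbered 613, 227 with no low-count filter and 557 to 1661 with 1 library left out. The other meiotic genes that rose in excitatory neurons numbered 9, 2 with no filter and 7 to 13 with 1 library left out, and in inhibitory neurons 2, 1 with DESeq2 and 1 to 2 with 1 library left out. The call of the Mei1 difference among excitatory subclasses was 0 to 1 with 1 library left out.

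With the replicate number as a block the counts were 2098 genes higher in excitatory neurons, 11 interneuron calls, 6 glial calls, 16 and 4 other meiotic genes in excitatory and inhibitory neurons, and 2 flanking genes. Deviations of same-numbered libraries correlated across genes (r = 0.463 over 19156 genes in excitatory and 0.263 over 14523 in inhibitory neurons), and they share the pattern of Xist and Uty RNA, but with 2 pairs and no shared source in the labels the numbers are not taken as pairing. Shares of nuclei with any of the 5 moved with depth: thinned to 1000 UMIs they were 18.4 and 19.001% of knockout excitatory and 7.82 and 9.45% of knockout inhibitory nuclei, and unthinned 50.7, 47.4, 20.4 and 24.2%. With 250 bases upstream alone, 1 promoter in place of 3 held GCGGGA or TCCCGC. The cause of these changes was not tested. Low UMI counts limit all values outside excitatory neurons.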
